A study of Mus musculus with 2 samples.

Results

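The genes described here encode subunits of the last stages of mitochondrial respiration: complex III (cytochrome bc1), complex IV (cytochrome c oxidase) and complex V (ATP synthase). They were taken by symbol, as genes starting with Uqcr, Cox4 to Cox8 or Atp5, together with Cyc1. The rule found 43 genes of 18193 with a single gene name on the array, 9 for complex III, 17 for complex IV and 17 for complex V. For each gene the values are those of the probe set with the highest mean signal of the 2 arrays, out of 83 probe sets in all. A probe set is a group of short oligonucleotide probes for 1 transcript.

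RNA came from glomeruli, the filtering units of the kidney, of male KK/Ta mice aged 20 weeks. KK/Ta is an inbred strain prone to obesity and type 2 diabetes, and both groups carry this background. The HFD group had received a high-fat diet and the Chow group a normal fat diet, and each is represented by 1 Affymetrix Mouse Genome 430 2.0 array. The study's design text mentions 3 mice but not how many contributed to an array or whether RNA was pooled, and every value below is a single measurement with no replicate check and no p-value.

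Complex III passes electrons from ubiquinol to cytochrome c and pumps protons, complex IV passes them on to oxygen, and complex V uses the proton gradient to make ATP. Each complex combines a few subunits that carry the catalysis or the frame with many short proteins that stabilise it, join it into dimers or tune its activity. The genes here are all nuclear, while the catalytic core of complex IV and some subunits of complexes III and V are encoded by mitochondrial DNA and are not among them. In the kidney the highest demand for respiration lies in tubule cells, and glomerular cells hold fewer mitochondria.

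Glomerular RNA from the HFD group held less transcript of the short accessory subunits of complexes III and V than RNA from the Chow group, whereas the core subunits of complex III and most of the F1 head of complex V stood slightly higher. Differences are HFD minus Chow on the log2 scale, with each array centred on its median and values under the 50th percentile (a signal of 42.3 in HFD and 44.9 in Chow) raised to that floor. Of the 43 genes, 38 were above the floor and 20 of those were lower in HFD, or 52.6%, against 37.8% of all 11360 genes above the floor. Uqcr11 was at least 2-fold lower in HFD, 1 of 38 members against 0.158% of all genes, and 0 members were at least 2-fold higher, against 0.731%. Cox6c, Atp5e and Atp5k joined it at the 1.5-fold limit, making 4 of 38 members (10.5%) against 1.42% of all genes, and 0 members were at least 1.5-fold higher, against 4.23%. Medians by complex were nearly alike at -0.053 for III, -0.060 for IV and -0.072 for V, against 0.064 over all genes above the floor. In RNA from isolated glomeruli, fewer cells of a type and less RNA per cell cannot be told apart.

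**Figure D1:**
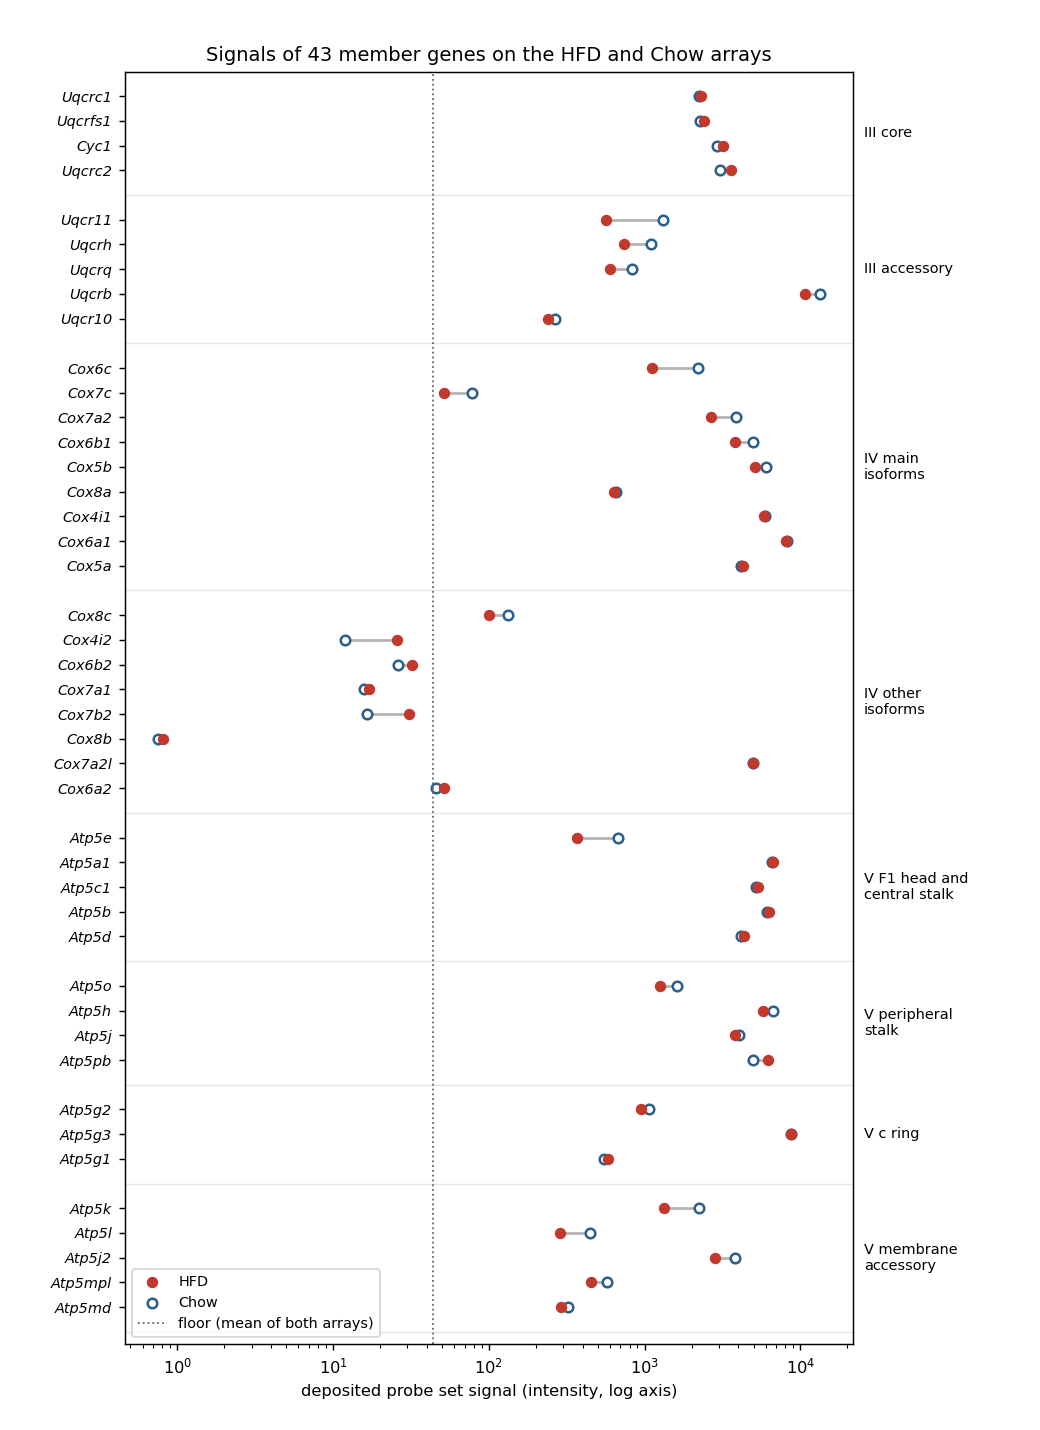
Deposited signal (log axis) of each of the 43 genes in HFD (filled red) and Chow (open blue), grouped by subunit role, with the floor as a dotted line. The pairs of Uqcr11, Cox6c and Atp5e lie furthest apart among the genes above the floor, with HFD to the left, and the 5 genes whose pairs lie left of the dotted line are tissue-restricted isoforms of complex IV.

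The proximal promoters of the genes with the lowest values are printed here because respiratory subunit genes are known for a shared set of promoter elements. The 150 bases before the annotated start come from RefSeq (GRCm38.p6). Of the 4 members at least 1.5-fold lower, 3 have an entry in the promoter table, and the core subunit gene Uqcrc1 stands beside them. Capitals mark the ETS core CCGGAAG, as bound by GABPA, in Uqcr11 and its reverse complement in Atp5e. In Atp5k they mark 2 overlapping matches, 1 per strand, of the NRF1 core GCATGCGC (GCGCATGC on the other strand).
Uqcr11, chr10:80406822-80406971, minus strand: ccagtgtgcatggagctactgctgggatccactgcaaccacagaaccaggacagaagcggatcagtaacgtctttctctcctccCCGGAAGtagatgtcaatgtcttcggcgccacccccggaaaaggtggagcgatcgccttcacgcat
Atp5e, chr2:174464102-174464251, minus strand: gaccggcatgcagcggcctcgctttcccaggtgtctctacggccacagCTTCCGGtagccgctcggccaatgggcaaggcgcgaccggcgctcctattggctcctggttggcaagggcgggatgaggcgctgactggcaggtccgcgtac
Atp5k, chr5:108434400-108434549, minus strand: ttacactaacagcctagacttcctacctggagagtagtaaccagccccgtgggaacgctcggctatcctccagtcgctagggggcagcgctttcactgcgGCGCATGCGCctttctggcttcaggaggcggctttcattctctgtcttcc
Uqcrc1, chr9:108936498-108936647, plus strand: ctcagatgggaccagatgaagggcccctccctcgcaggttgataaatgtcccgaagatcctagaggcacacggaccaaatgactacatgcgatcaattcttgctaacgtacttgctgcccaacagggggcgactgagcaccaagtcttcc

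The ETS match begins 66 bases before the start in Uqcr11 and 102 bases before it in Atp5e. An NRF1 core in Uqcr11 begins 4 bases before the start and runs past the printed stretch. Atp5k also holds an ETS match and Uqcrc1 an overlapping pair of NRF1 matches, all within the 50 bases after the start, which are not printed. Over the full window of 250 bases before to 50 after the start, on both strands, the ETS core was present in 11 of 28 members above the floor that have an entry (39.3%), against 9.93% of 27025 genes in the table. The NRF1 core was present in 6 of 28 (21.4%), against 3.05%, and the YY1 motif AANATGGCG in 3 of 28 (10.7%), against 2.76%. The genes in the table were not limited to those above the floor, so members and background are unlike sets. Whether the excess is particular to the members was not tested. Among members lower in HFD 8 of 15 held the ETS core, and among members higher in HFD 3 of 13. For the NRF1 core these counts were 4 of 15 and 2 of 13. The letters were chosen with these sequences in view, and a match describes the sequence without showing that a factor binds there.

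All 4 core subunits of complex III were slightly higher in HFD, with a median of 0.19 and a range of 0.11 to 0.31. Most genes above the floor were also higher, 7070 of 11360, with a median of 0.064. Uqcrc2, a core protein of the matrix side, had a signal of 3569.5 in HFD and 3051 in Chow, a difference of 0.31. Its second probe set, at 2751 in HFD and 2868 in Chow, differed by only 0.023. Cyc1, the haem-bearing cytochrome c1, had 3192 in HFD and 2928 in Chow (0.21). Uqcrfs1, the Rieske iron-sulphur protein, had 2409 in HFD and 2266 in Chow (0.17), and Uqcrc1, the other core protein, 2287 in HFD and 2242 in Chow (0.11). These differences are all under 1.25-fold, and each kept its sign without centring.

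All 5 accessory subunits of complex III were lower in HFD, against 37.8% of all genes above the floor, with a median of -0.39. The accessory subunits and the core subunits did not overlap, since the highest accessory value was -0.053 and the lowest core value 0.11. These are only 5 and 4 genes, read on 1 array per diet. Uqcr11, a short subunit of the membrane part, had a signal of 563 in HFD and 1307 in Chow, a difference of -1.13 or 2.19-fold lower. It has 1 probe set, so no second reading of this gene exists on the arrays. Uqcrh, the hinge protein that contacts cytochrome c1, had 733 in HFD and 1096 in Chow (-0.50), and its second probe set gave -0.20. Uqcrq had 602 in HFD and 834 in Chow (-0.39).

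Uqcrb, which lies near a ubiquinone site, had 10713 in HFD and 13299 in Chow (-0.23), while its second probe set, at 516 in HFD and 922 in Chow, gave -0.75. Uqcr10, a small membrane subunit, had 241 in HFD and 264 in Chow (-0.053). A second Uqcr10 probe set was above the floor in Chow only (31.8 in HFD and 90.3 in Chow) and was at least 2.01-fold lower. The direction was the same in both probe sets of Uqcrh and of Uqcrb, and the sizes were not. The second Uqcr10 probe set could only read as lower, since it passed the floor through Chow alone.

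**Figure D2:**
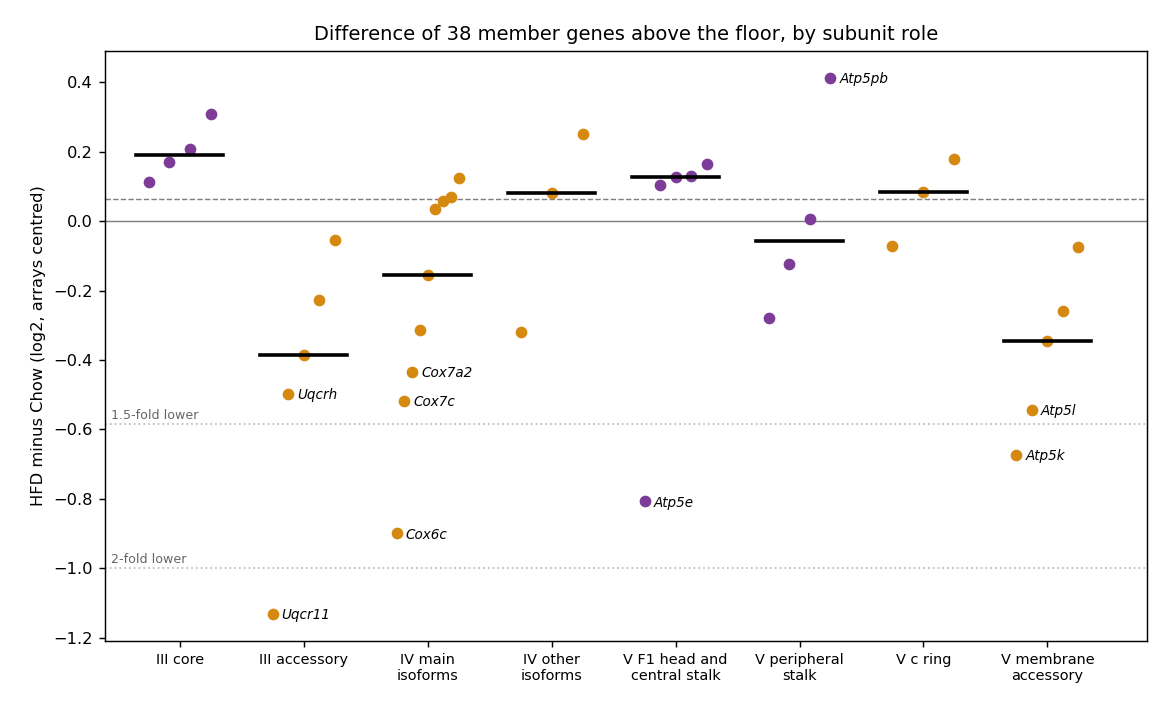
HFD minus Chow difference (log2, arrays centred) of the 38 genes above the floor, by role, with bars at the medians, a dashed line at the median of all genes (0.064) and dotted lines at 1.5-fold and 2-fold lower. Purple marks the roles placed in the large class and orange those in the small class, and the accessory roles of complexes III and V lie wholly below 0.

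The main isoforms of complex IV were divided, with 5 of 9 lower in HFD, against 37.8% of all genes, and a median of -0.15. Cox6c, a membrane subunit of the oxidase, had a signal of 1115 in HFD and 2204 in Chow, a difference of -0.90 or 1.87-fold lower. Its second probe set agreed in direction, with 1118 in HFD and 1899 in Chow (-0.68). Cox7a2, the general isoform of a subunit that also has a heart and muscle form, had 2685 in HFD and 3843 in Chow (-0.43), and its second probe set gave -0.55. Cox7c had 51.3 in HFD and 77.8 in Chow (-0.52), both just above the floor, where single differences scatter most. Cox6b1, which lies between the monomers of the dimer, had 3785 in HFD and 4984 in Chow (-0.31). Cox5b, a zinc-binding subunit of the matrix side, had 5126 in HFD and 6046 in Chow (-0.15), and its 3 further probe sets above the floor ran from -0.26 to -0.15.

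The other 4 main isoforms of complex IV differed by at most 0.12. Cox5a had 4271 in HFD and 4153 in Chow (0.12), and all 3 of its probe sets were higher. Cox4i1, a regulatory subunit that binds adenine nucleotides, had 5851 in HFD and 5959.7 in Chow (0.057). Cox6a1 had 8099 in HFD and 8174 in Chow (0.070), and Cox8a 632 in HFD and 653 in Chow (0.035). The last 3 of these signs turn negative without centring, so neither direction holds for them.

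Of the 8 other isoforms and relatives in complex IV, 3 were above the floor. Cox7a2l, which joins complexes III and IV into a supercomplex, had 4965 in HFD and 4976 in Chow (0.080, and -0.0032 without centring). Cox8c, known from testis, had 99.97 in HFD and 132 in Chow (-0.32), and Cox6a2, the heart and skeletal muscle isoform, 51.8 in HFD and 46.1 in Chow (0.25). Cox4i2, Cox6b2, Cox7a1, Cox7b2 and Cox8b were under the floor on both arrays, with signals of 0.805 to 32.3 in HFD and 0.751 to 26.2 in Chow. These 5 genes therefore have no measured difference.

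In complex V, 4 of 5 genes of the F1 head and central stalk were slightly higher in HFD and 1 was well below them. Over all genes above the floor 7070 of 11360 were higher. Atp5b, the catalytic beta subunit, had a signal of 6284 in HFD and 6078 in Chow (0.13). Atp5a1, the alpha subunit, had 6641 in HFD and 6549 in Chow (0.10), Atp5c1, the gamma subunit, 5325 in HFD and 5165 in Chow (0.13), and Atp5d, the delta subunit, 4375 in HFD and 4135 in Chow (0.16). A further probe set of Atp5a1 with a signal of 4527 in HFD and 4192 in Chow gave 0.19, and a dimmer one (248 in HFD and 275 in Chow) gave -0.065. The further probe set of Atp5c1, at 131 in HFD and 164 in Chow, gave -0.23, so the sign differed between bright and dim probe sets of both genes. Atp5e, the very short epsilon subunit of the same stalk, had 366 in HFD and 679 in Chow, a difference of -0.81 or 1.75-fold lower, in its 1 probe set.

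The peripheral stalk, which holds the F1 head against rotation, had a median of -0.058 and members on both sides of 0. Atp5pb, its b subunit, had 6191 in HFD and 4926 in Chow (0.41), and its second probe set gave 0.56. These were the highest values of any member above the floor. Atp5o, the protein that ties the stalk to the F1 head, had 1254 in HFD and 1613 in Chow (-0.28), with a second probe set at -0.71. Atp5h had 5743 in HFD and 6628 in Chow (-0.12), and Atp5j 3827 in HFD and 4033 in Chow (0.0075, and -0.076 without centring).

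All 5 membrane accessory subunits of complex V were lower in HFD, against 37.8% of all genes above the floor, with a median of -0.34. They include subunits that join ATP synthase into the dimer rows along the cristae. Atp5k, the e subunit, had 1330.5 in HFD and 2249 in Chow, a difference of -0.67 or 1.60-fold lower. Its further 2 probe sets gave -0.088 (1389 in HFD and 1565 in Chow) and -0.23, so the 1.5-fold call rests on the probe set with the highest mean. Atp5l, the g subunit, had 288 in HFD and 445 in Chow (-0.54), just inside 1.5-fold. Atp5j2, the f subunit, had 2835 in HFD and 3815 in Chow (-0.34), and its further probe sets gave -0.51 and -0.22. Atp5mpl had 452 in HFD and 574 in Chow (-0.26) and Atp5md 289.8 in HFD and 323 in Chow (-0.075).

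The 3 genes of the c ring, Atp5g1, Atp5g2 and Atp5g3, encode the same mature protein and differed little. Atp5g1 had 584 in HFD and 546 in Chow (0.18). Atp5g2 had 952 in HFD and 1061 in Chow (-0.072), and Atp5g3 8680.4 in HFD and 8685 in Chow (0.083, and -0.00074 without centring). The lowest c-ring value, -0.072, lay just above the highest value of the membrane accessory subunits, -0.075.

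Small and large subunits were compared in classes set by role, since no protein lengths were used here. The large class held the complex III core and the F1 head, central stalk and peripheral stalk of complex V, and the small class all other members. The median was -0.23 over 25 small-class genes and 0.13 over 13 large-class genes, a difference of -0.36. In the small class 17 of 25 were lower in HFD. In the large class 3 of 13 were lower, and over all genes above the floor 37.8%. Atp5e and Atp5j are short proteins in a large role and Cox4i1 is among the longer nuclear subunits of complex IV. With these 3 genes moved to the other class, 18 of 26 small and 2 of 12 large genes were lower in HFD, and the difference was -0.37. Within complex III the difference of medians was -0.58 (5 small, 4 large) and within complex V -0.27 (8 small, 9 large), and complex IV has no large-class member.

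The 2 classes also differed in signal, and the scatter of HFD minus Chow differences depends on signal. Over all genes above the floor on both arrays the scaled median absolute deviation was 0.14 in the brightest 10% and 0.37 in the dimmest 10%. Of the large class 9 of 13 genes were in the brightest 10%, and of the small class 10 of 25. Among those bright genes the medians were -0.049 for the small class and 0.13 for the large class and the difference was -0.18, against -0.36 over all members. Outside the brightest 10% the medians were -0.32 for 15 small genes and -0.083 for 4 large genes. Lower in HFD were 5 of 10 small and 1 of 9 large genes in the brightest 10%. Outside it 12 of 15 small and 2 of 4 large genes were lower. The part of signal in the difference between the classes was not tested.

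**Figure D3:**
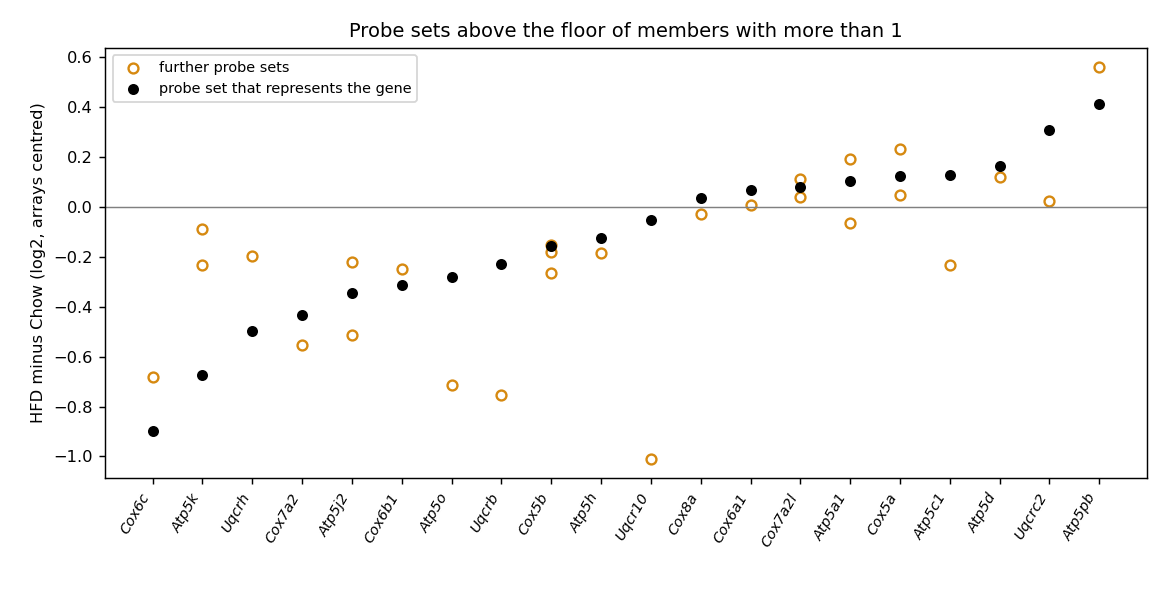
HFD minus Chow difference (log2, arrays centred) for the 20 members with more than 1 probe set above the floor, ordered by the probe set that represents the gene (black), with further probe sets in open orange. Most pairs share their sign, and Atp5k, Atp5o, Uqcrb and Uqcr10 show the widest gaps.

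Further probe sets gave a partial check within the same 2 RNA preparations, and the same check was not made over all genes. Of 27 further probe sets above the floor, from 20 genes, 24 had the sign of the probe set that represents the gene. In the small class 18 of 19 did, and in the large class 6 of 8. The exceptions were single probe sets of Atp5a1, Atp5c1 and Cox8a. Of the 4 genes at least 1.5-fold lower, Cox6c and Atp5k have further probe sets, 3 in all, and each was lower in HFD. Short, abundant mRNAs of this kind have many processed pseudogenes, and probe sets with names ending _x_at or _s_at may also read related sequences.

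**Figure D4:**
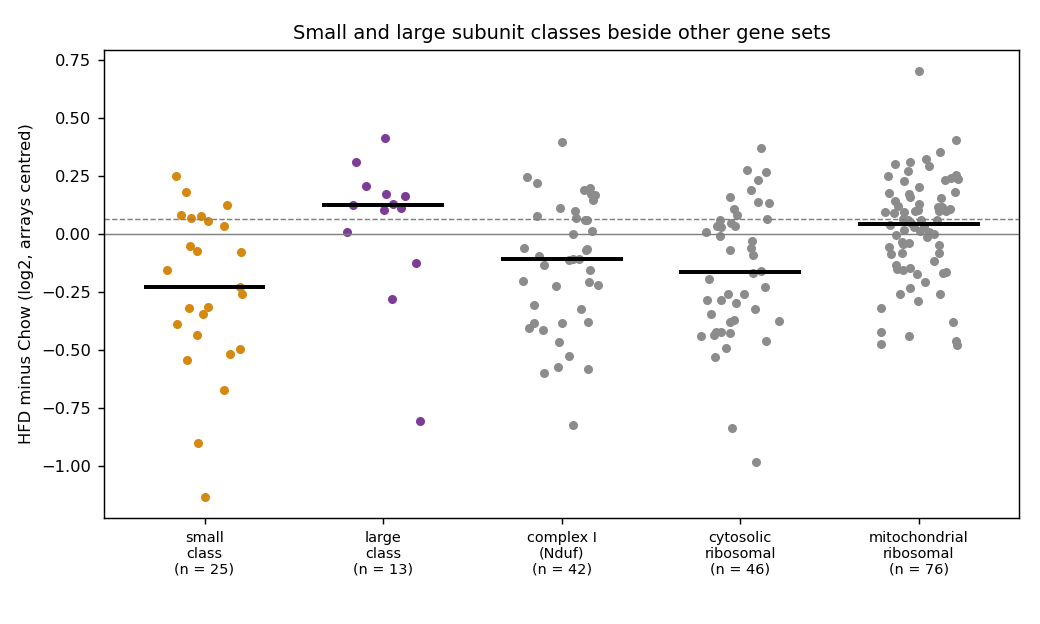
HFD minus Chow difference (log2, arrays centred) of genes above the floor in the small and large classes, in complex I and in cytosolic and mitochondrial ribosomal proteins, with bars at the medians and a dashed line at the median of all genes (0.064). The small class, complex I and cytosolic ribosomal sets have medians under 0. These sets and the large class each reach below -0.75, the large class through Atp5e alone.

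Complex I and cytosolic ribosomal protein genes also had medians below 0. The complex I set was taken by symbol, as genes starting with Nduf, most of which are subunits or assembly factors of complex I. The small class stood at -0.23, against -0.11 for 42 Nduf genes and -0.16 for 46 cytosolic ribosomal protein genes. In the small class 68.0% of genes were lower in HFD, against 64.3% of the Nduf genes and 63.0% of the cytosolic ribosomal genes. The Nduf and cytosolic ribosomal sets were not split by size, so they are unlike the small class. They ran from -0.82 to 0.40 and from -0.98 to 0.37. Whether a difference between small and large proteins is also present in them was not tested. At least 1.5-fold lower were 3 of 25 small-class genes, against 2 of 42 and 2 of 46 in these sets. Mitochondrial ribosomal protein genes, 76 in all, had a median of 0.044, and 39.5% were lower. All these sets share the same 2 arrays, so their likeness is a description.

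Genes that build or feed these complexes gave medians from -0.28 to 0.19, and none was 2-fold lower or higher. Of 5 assembly factors of complex III, 4 were lower in HFD (median -0.28), with Uqcc2 at -0.37, Bcs1l, which inserts the Rieske protein, at -0.35 and Ttc19 at 0.36. Of 19 assembly factors of complex IV, 10 were lower (median -0.080), 2 by at least 1.5-fold. Over all genes above the floor 37.8% were lower, 1.42% were at least 1.5-fold lower and 4.23% at least 1.5-fold higher. Cox15, a haem A synthesis enzyme, had 226 in HFD and 472 in Chow (-0.98), and Pet100 had 123 in HFD and 209 in Chow (-0.69). Cox18, which inserts an oxidase subunit into the membrane, had 508 in HFD and 310.5 in Chow (0.79) and was the 1 factor at least 1.5-fold higher.

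The assembly and inhibitor list of complex V had a median of 0.19 over 4 genes, with the assembly factors Atpaf2 at 0.41 and Atpaf1 at 0.31 and the ATPase inhibitor Atpif1 at -0.27. Complex II, whose 4 subunits are all nuclear, had 3 of 4 higher, led by Sdha (0.19), Sdhb (0.14) and Sdhd (0.091), with a median of 0.11. Cytochrome c (Cycs) stood at -0.23 and the adenine nucleotide carriers Slc25a5 and Slc25a4 at 0.18 and 0.14. Among 10 regulators of nuclear mitochondrial genes 7 were higher, with a median of 0.13. Over all genes above the floor 7070 of 11360 were higher, with a median of 0.064. The counts for complex II and the regulators are therefore not set apart from most genes. The coactivator Ppargc1a stood at 0.41, the mitochondrial DNA factor Tfam at 0.28 and Ppargc1b at -0.19. None of these regulators reached 1.5-fold in either direction.

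Most markers of glomerular cells were bright on both arrays, as their label calls for, and the endothelial gene Vwf was the dimmest of them, with 116 in HFD and 52.8 in Chow (2.32-fold higher). The podocyte gene Podxl had 15316 in HFD and 16261 in Chow, and Cdkn1c 14522 in HFD and 15025 in Chow. The endothelial gene Ehd3 had 14651 in HFD and 14184 in Chow, and Emcn 9720.0 in HFD and 9069 in Chow. The mesangial gene Itga8 had 10804 in HFD and 10337 in Chow, and Pdgfrb 5059.7 in HFD and 5811 in Chow. Signals of 7 podocyte markers summed to 65424 in HFD and 69727 in Chow, with 3 of 7 higher in HFD (median -0.0029). Endothelial markers were higher in HFD in 8 of 9 genes (median 0.18), and mesangial markers in 4 of 6 (median 0.11). Over all genes above the floor 7070 of 11360 were higher (median 0.064). In the mesangial list, the contractile genes Tagln (574 in HFD and 381 in Chow) and Acta2 (3782 in HFD and 2784 in Chow) were 1.60-fold and 1.44-fold higher. Tubule cells are rich in mitochondria, and their markers were higher in HFD, in 11 of 12 proximal genes (median 0.56) and 9 of 11 loop, distal and collecting duct genes (median 0.61). The proximal signals summed to 13409 in HFD and 10397 in Chow, and the distal ones to 9047 in HFD and 6478 in Chow, with Umod (5000.5 in HFD and 3742 in Chow) and Slc27a2 (4636 in HFD and 2855 in Chow) the brightest on both arrays. Kap had 2742 in HFD and 1968 in Chow, and Slc12a3 had 1263 in HFD and 755 in Chow. Aqp1, a water channel also bright here (1591 in HFD and 1994 in Chow), was the 1 proximal gene lower in HFD (-0.24).

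All 12 myeloid markers were higher in HFD (median 1.26), against 7070 of 11360 genes above the floor. Their summed signal was 5629 in HFD and 2242 in Chow, led by H2-Aa (1023 in HFD and 416 in Chow) and Csf1r (1009 in HFD and 627 in Chow). No marker had a signal of 0, and Scnn1b, Cd68, C1qa, C1qb and C1qc were under the floor in Chow only. These genes could therefore only read as higher in HFD, and the distal and myeloid counts and medians include them. RNA degradation raises the signal of a transcript's 3′ end over its 5′ end, and that ratio was 3.43 in HFD and 3.59 in Chow for Gapdh, and 1.72 in HFD and 1.89 in Chow for beta-actin. The part of tubule cells, myeloid cells or RNA integrity in the values of the respiratory genes was not tested.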

How the data were processed

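The deposited table holds 1 linear probe set intensity per array, 45101 probe sets of which 64 are controls. The authors' deposited intensity values ran up to 19489 (HFD) and 19853 (Chow). GeneSpring 7.3.1 made the authors' comparison, per the labels' design text. Probe summarisation and scaling are not given in the sources used here. No detection calls were used.

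Control probe sets were set aside. Signals were log2-transformed, and subtracting each array's median added 0.083 to every HFD minus Chow difference. Values under the 50th percentile of an array were raised to it. The platform's 2016 annotation gave the gene names: 34945 probe sets named 1 gene, 932 several and 9160 none. All 43 members matched the RefSeq table by Entrez identifier, and 32 matched the promoter table. The limits for calls were 2-fold and 1.5-fold.

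Values are named for members at least 1.5-fold apart and for the 3 largest differences and the brightest gene of each role, which here covers nearly all. Members and lists were chosen with earlier results of these data known. With 1 array per diet there is no test. The number of arrays limits the precision. The procedure was tested on simulated data. Python 3.11.15, numpy 2.4.6, pandas 2.3.3 and statsmodels 0.14.6 were used.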

Additional observations from a re-analysis of the deposited data

How the results depend on the processing

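The scaling was varied (no centring, quantile, loess with span 0.3). The floor was varied too (30th percentile, 70th, none, or the 25th percentile added in its place). So was the choice of probe sets: a gene's median, or no names ending _x_at, _s_at or _a_at. Probe sets with these endings are called shared here, although _a_at need not mean that other genes are read. Chosen after seeing the data were 3 more: other size classes, leaving out Cox6a2, Cox7c and Cox8c near the floor, and keeping only the brightest 10% of genes. A median was called moved past 0.1. The small minus large difference was negative in all, from -0.40 to -0.18. It moved to -0.20 with the 30th percentile floor and to -0.18 in the brightest 10%. With the 30th percentile floor 42 members were above it, against 38, and the other isoforms of complex IV went from 3 to 7. Not all settings could change it. Leaving out centring shifts both classes alike, and removing the floor altered no member above it, so the difference stayed at -0.36. The 70th percentile floor kept the same 35 members as leaving out Cox6a2, Cox7c and Cox8c, and both gave -0.32. Splits at fixed protein lengths were not run, since no protein table was used. No paired analysis was possible because each diet has 1 array. The count of members at least 2-fold lower was 1 throughout, and that at 1.5-fold ran from 3 to 6.

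The median of complex V stayed between -0.16 and -0.072, and those of complexes III and IV were less stable. Complex IV turned positive with the 30th percentile floor (0.064), the 70th (0.035) and without the 3 genes near the floor (0.035), and was -0.25 without shared probe sets. Complex III was -0.35 with the gene's median probe set and -0.20 without shared probe sets, and its accessory subunits -0.49 and -0.75. Leaving out shared probe sets kept only 25 members, with 5 genes of complex III, 3 of them accessory, and 7 of complex IV. Its medians therefore cover fewer genes. The median over all members was 0.021 with the 30th percentile floor. That floor also gave 1 member at least 2-fold higher, 2 at least 1.5-fold higher and a median of 0.25 for the other isoforms of complex IV. That list was -0.0032 without centring and -0.035 without shared probe sets. The c ring was -0.00074 without centring, and the peripheral stalk 0.0075 without shared probe sets. The causes were not tested.

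Over all genes, counts depended on the floor. At least 2-fold lower were 18, against 170 with the 30th percentile floor, 5 with the 70th, 52 with none and 31 with the added percentile. At least 2-fold higher were 83, against 331, 26 and 167 under the 3 floor settings. At least 1.5-fold lower were 161, against 691, 61 and 247, and 253 without centring. At least 1.5-fold higher were 481, against 1187 and 159 with the 30th and 70th percentile.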
